A study of Mus musculus with 12 samples.

Results

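Respiratory complexes II and III, the electron carrier cytochrome c and the ATP synthase are followed here in polyadenylated RNA of mouse heart cells. The genes were taken from the deposited count table by symbol, as Sdha, Sdhb, Sdhc, Sdhd, Cyc1, Cycs and every symbol starting with Uqcr or Atp5. This gave 33 of 57683 genes, of which 4 encode complex II, 9 complex III, 1 cytochrome c and 15 the ATP synthase, while 4 are other rows that carry an Atp5 symbol. Cardiomyocytes, the contracting muscle cells, had been isolated from hearts of 12-week-old female FVB/NJ mice, an inbred strain, and lysed for RNA without culture. The cells set against them were nonmyocytes of such hearts, which the protocol describes as passaged 2 times to a mostly fibroblast culture, whereas the cell type label calls the culture P1. All mice were wild type, with 3 polyadenylated RNA libraries per fraction. Since 1 fraction was fresh and the other had grown in dishes, effects of the cell type and of the culture cannot be told apart in these data.

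Complex II, or succinate dehydrogenase, is an enzyme of the citric acid cycle that hands electrons from succinate to ubiquinone. Complex III takes the electrons from ubiquinone to cytochrome c and pumps protons, and the ATP synthase lets the protons flow back through a rotating ring of subunit c to make ATP. The heart is known for dense mitochondria and a constant demand for ATP, and all genes of complex II are nuclear, whereas complex III and the ATP synthase also hold subunits encoded in mitochondrial DNA.

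Total counts per library were 5956831 to 26851830 in cardiomyocytes and 8126422 to 10792544 in nonmyocytes, with cardiomyocyte library 1 the shallowest. Levels are CPM, the counts scaled to a common library size by the TMM method (trimmed mean of M values), and ± marks the SD over 3 libraries (n = 3). The 6 cardiomyocyte markers summed to 99009 to 132872 CPM in cardiomyocytes and to 696 to 941 CPM in nonmyocytes, and all 6 were called higher in cardiomyocytes. The 7 fibroblast markers summed to 416 to 671 CPM in cardiomyocytes and to 25725 to 30257 CPM in nonmyocytes, and all 7 were called lower in cardiomyocytes. Endothelial markers moved with the cardiomyocytes. Of 5 such genes 4 were tested and all 4 were higher, with a sum of 320 to 706 CPM in cardiomyocytes and 52.4 to 62.4 CPM in nonmyocytes. Pecam1 was not tested, with a mean of 0.0841 CPM in cardiomyocytes and 0 counts in nonmyocytes. Exon bases of Pecam1 lie 81.1% in other annotated genes, so its level is uncertain. Erythroid markers summed to 605, 88.3 and 12.7 CPM in cardiomyocyte libraries 1 to 3 and to 1.63 to 3.96 CPM in nonmyocytes. Of 5 smooth muscle and mural genes 4 were lower and 1 higher, and of 5 macrophage and leukocyte genes 2 were lower, 1 higher and 1 not called. The part of these other cells in the results was not tested. In such bulk samples, fewer cells of a type and less RNA per cell cannot be told apart. The labels do not say which heart a library came from, so the p-values reflect only how far these 6 libraries scatter, and some of that scatter may be technical.

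The genes of complexes II and III, cytochrome c and the ATP synthase were higher in cardiomyocytes almost throughout. Of the 33 genes, 28 passed the filter on low counts, and 27 of these 28 were called higher in cardiomyocytes and 0 lower (edgeR quasi-likelihood test, Benjamini-Hochberg adjusted p under 0.05), with 0 lower also at an unadjusted p under 0.05. Over all 14734 genes tested, 31.6% were called higher and 32.1% lower. DESeq2 and limma voom likewise called 27 higher and 0 lower. In the same 27 genes every cardiomyocyte library lay above every nonmyocyte library, which held for 34.1% of all genes tested. Cycs and Atp5l-ps1, both among the 27, passed the filter only through the cardiomyocyte libraries. With 19, 2 and 22 and with 7, 4 and 5 counts in nonmyocytes, they could hardly have been called lower. The median log2 fold change, cardiomyocytes over nonmyocytes, was 3.25 over the 28 genes and -0.02 over all genes. Together the 33 genes took 3.19%, 3.27% and 2.84% of all counts in the cardiomyocyte libraries, against 0.518%, 0.519% and 0.458% in the nonmyocyte libraries. Scaling by library totals instead of TMM moved the median of all genes to -0.70 and gave 3177 genes higher and 7106 lower, while 27 of the 28 genes stayed called higher at a median of 2.57.

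**Figure D1:**
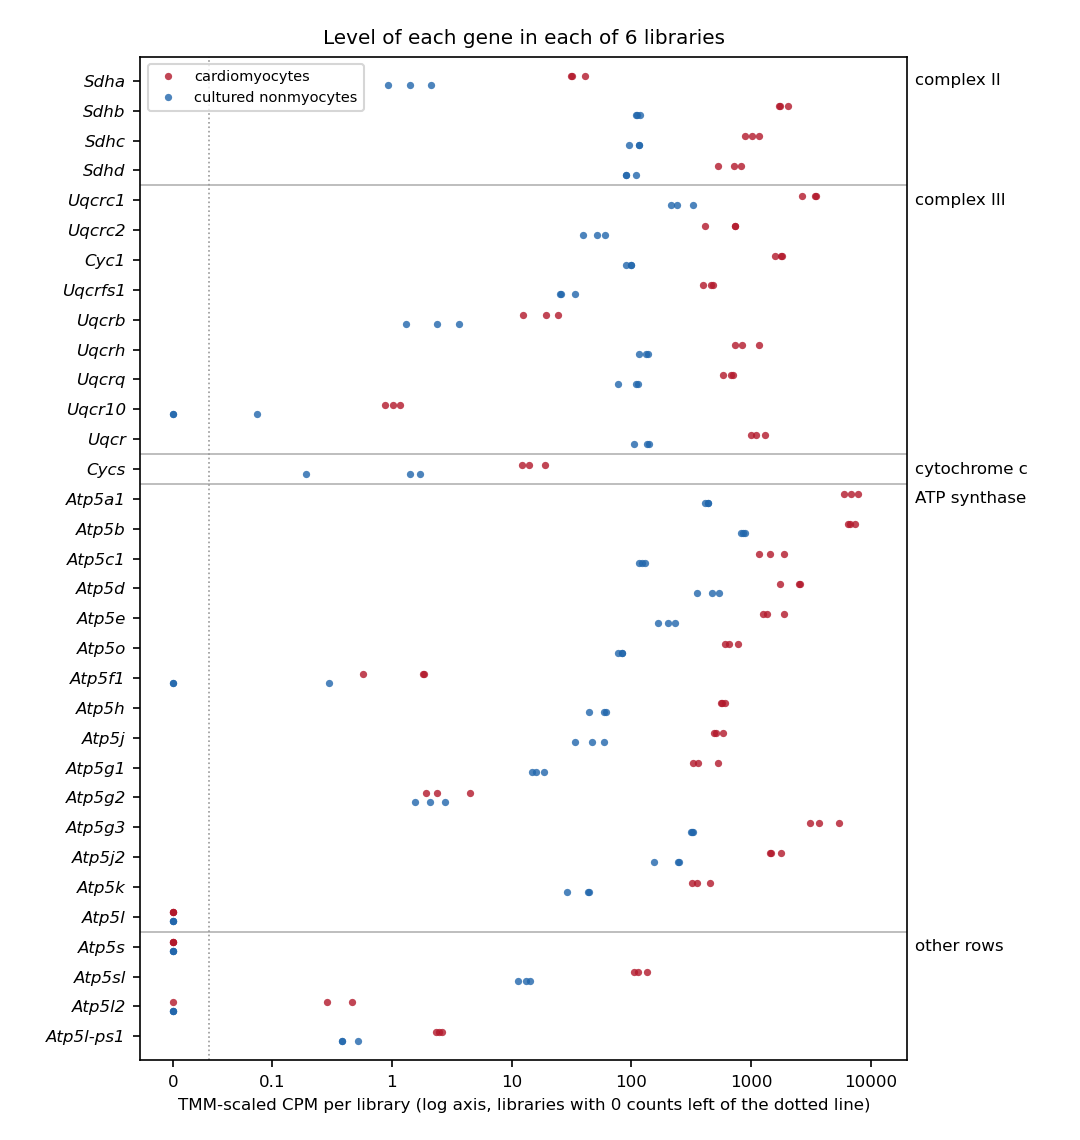
TMM-scaled CPM of all 33 genes in each of 6 libraries on a log axis, with cardiomyocytes in red above cultured nonmyocytes in blue and libraries with 0 counts left of the dotted line. Red and blue points overlap for Atp5g2 and all lie at 0 for Atp5l and Atp5s. For Atp5l2 cardiomyocyte library 1 lies at 0 with the nonmyocyte libraries. Sdha, Uqcrb, Uqcr10, Cycs and Atp5f1 stay below 50 CPM in every library of both fractions.

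**Figure D2:**
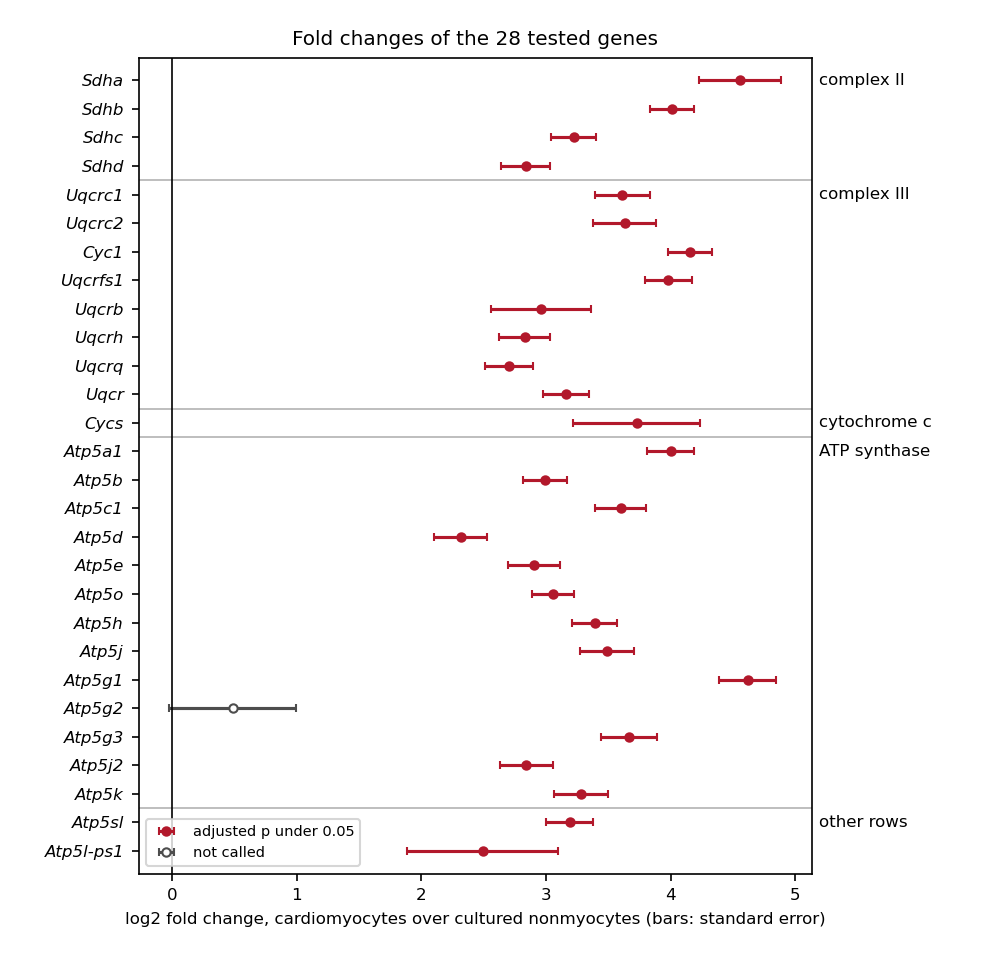
The log2 fold change of the 28 tested genes, cardiomyocytes over cultured nonmyocytes, with bars for the standard error of the edgeR fit. Filled points passed an adjusted p of 0.05 and the open point, Atp5g2, did not, while the called subunits run between 2.32 for Atp5d and 4.62 for Atp5g1.

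Among the 25 subunit and cytochrome c genes called higher, cardiomyocyte library 2 gave the highest of the 3 cardiomyocyte values for 24 genes and library 3 for 1 gene, Cycs. The lowest value came from library 1 for 13 genes and from library 3 for 12 genes. In nonmyocytes the highest value came from library 1 for 9 genes, from library 2 for 11 and from library 3 for 5. On the TMM scale cardiomyocyte library 2 was thus the high one in complexes II and III and in the ATP synthase alike. The sum of all genes on that scale was also highest there, at 1390830 CPM against 1154090 and 1269970 CPM in libraries 1 and 3. So were the sums of complex I and of nuclear cytochrome c oxidase, which are described further below. As a percent of all counts complex III was highest in library 1, at 0.740%, against 0.699% and 0.618% in libraries 2 and 3. The share of counts from mitochondrially encoded genes was 3.06%, 6.12% and 5.85% in cardiomyocyte libraries 1 to 3, against 0.321%, 0.405% and 0.236% in nonmyocytes. Of these genes mt-Atp6 and mt-Atp8 are listed at 0 counts in every library, so the share may be too low.

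Per kb of coding transcript, 10 of the 33 genes stood at 39.2 CPM or below in cardiomyocytes, while the other 23 ran between 80.5 and 5690 CPM per kb. In 5 of the 10, Sdha, Uqcr10, Atp5f1, Atp5l and Atp5s, 79.2% to 100% of the bases of the coding transcript lie inside other annotated genes. In Sdha this is mostly n295304, a noncoding gene of the same strand that covers 2299 bases of its exons and held 0 counts in all 6 libraries. Most of the transcript of Uqcr10 lies in n297682, of Atp5f1 in n263508 and of Atp5s in n295588, which held 0 to 3 counts per library. Atp5l shares 290 exon bases with n294974, at 0 counts in every library, and 353 with n264144, a noncoding gene of the same strand. The counts of n264144 were 23, 42 and 41 in cardiomyocytes, against 4, 5 and 7 in nonmyocytes. Among the other 28 genes the largest such share was 42.5%, in Uqcrq, which held 1609 CPM per kb of transcript in cardiomyocytes. How reads in shared bases were counted is not given in the sources used here, and the libraries do not keep the strand, so levels of these 5 genes are uncertain.

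The other 5 low genes, Cycs, Uqcrb, Atp5g2, Atp5l2 and Atp5l-ps1, share sequence with copies elsewhere. Of the 50-base stretches in their transcripts, 28.5% to 100% also occur in another gene of the GENCODE vM21 annotation, in part processed pseudogenes. All 392 stretches searched for Atp5g2 occur in the pseudogene Gm10175, for example. The coding transcript of Atp5g2 in the deposited annotation has 647 bases, so part of it was probably not searched. Of the genes outside these 10, Atp5g1, with 66.0% of its stretches shared, mostly with the processed pseudogene Gm10039, held 680 CPM per kb of transcript in cardiomyocytes. Atp5h, with 50.5% shared with the processed pseudogene Gm10250, held 925 CPM per kb there. The split of the genes by overlap and by level was made after their values were seen, and the part of overlap or of copies in the low counts was not tested.

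**Figure D3:**
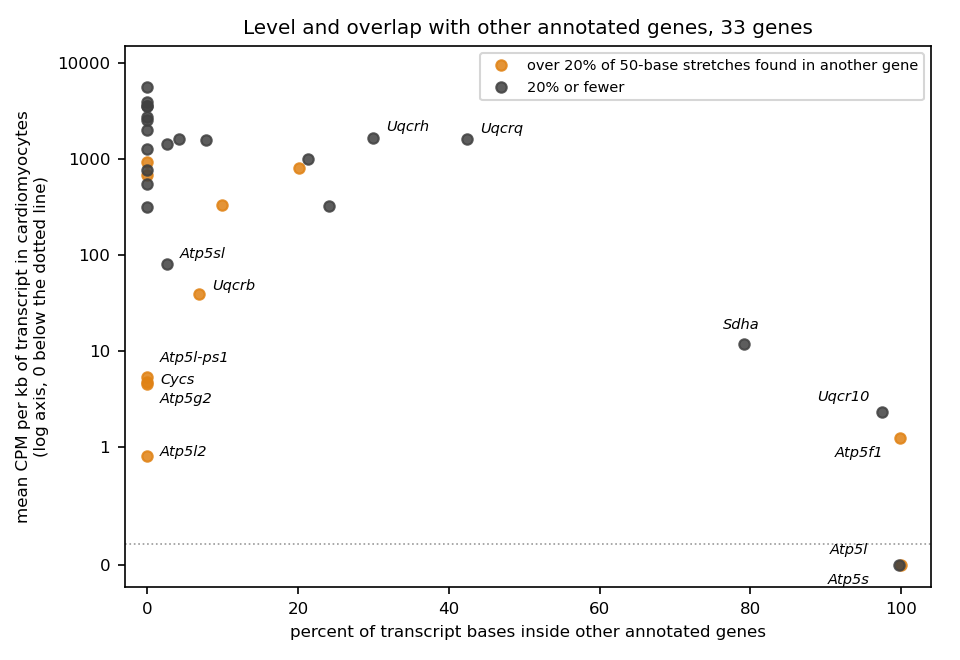
Mean TMM-scaled CPM per kb of coding transcript of the 33 genes in cardiomyocytes (log axis, 0 below the dotted line) against the percent of transcript bases inside other annotated genes, with genes that share over 20% of 50-base stretches with another gene in orange. The 5 genes at 79.2% or more reach 12.0 CPM per kb at most, and the 5 low genes at the left edge are all orange.

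All 4 genes of complex II were higher in cardiomyocytes, at a median log2 fold change of 3.62. Estimates for the catalytic pair were above those for the membrane anchors, and that difference was not tested. Sdhb (chr4:140517118-140535108, mm9), the iron-sulfur subunit that passes the electrons on, held 1734, 2030 and 1705 CPM in the cardiomyocyte libraries and 119, 112 and 108 CPM in the nonmyocyte libraries. The groups lay far apart, with the lowest cardiomyocyte value 14.3 times the highest nonmyocyte value. Its log2 fold change was 4.01 ± 0.18 (standard error; edgeR quasi-likelihood adjusted p = 6.17e-10). Per kb of exon it was the highest gene of the complex in cardiomyocytes, at 814 ± 80.4 CPM per kb against 50.5 ± 2.38 in nonmyocytes.

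Sdha (chr13:74459702-74487728), the flavoprotein that oxidises succinate, held 31.4, 40.8 and 31.9 CPM in cardiomyocytes, against 1.42, 2.13 and 0.931 CPM in nonmyocytes. Per kb of exon this was 8.94 ± 1.37 CPM in cardiomyocytes and 0.384 ± 0.155 in nonmyocytes, the lowest of the complex in both, and the overlap with n295304 makes the level uncertain. The groups did not overlap, and the log2 fold change of 4.56 ± 0.33 was the largest of complex II (edgeR adjusted p = 6.66e-08). Without genes that overlap others by over 20% of exon bases, which takes out Sdha, the median of complex II was 3.22.

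The membrane anchors hold the enzyme in the inner membrane and help to bind ubiquinone. Sdhc held 1017 ± 134 CPM in cardiomyocytes and 109 ± 11.1 CPM in nonmyocytes, a log2 fold change of 3.22 ± 0.18 (edgeR adjusted p = 5.30e-09). Sdhd (chr9:50404451-50411922) held 532, 824 and 711 CPM in cardiomyocytes, against 89.3, 90.3 and 110 CPM in nonmyocytes. It had the smallest fold of the complex, at 2.84 ± 0.20 on the log2 scale (edgeR adjusted p = 4.63e-08), with the groups still separate. Among the 3 genes with under 20% of the transcript in other genes and under 20% of 50-base stretches shared, the highest level per kb of exon was 2.60 times the lowest in cardiomyocytes and 2.31 times in nonmyocytes. Per kb of coding transcript the spread was 4.98 times in cardiomyocytes and 2.88 times in nonmyocytes.

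Of the 9 genes of complex III 8 were tested and all 8 were higher in cardiomyocytes, at a median log2 fold change of 3.39. Among these 8 genes the electron-carrying subunits had the largest folds. Cyc1 (chr15:76173963-76176364), cytochrome c1, which passes electrons to cytochrome c, held 1775, 1818 and 1569 CPM in cardiomyocytes, against 100, 99.6 and 89.5 CPM in nonmyocytes. The lowest cardiomyocyte library was 15.7 times the highest nonmyocyte library, and the log2 fold change of 4.16 ± 0.18 was the largest of these 8 genes (edgeR adjusted p = 4.46e-10). Uqcrfs1 (chr13:30632177-30637231), the Rieske iron-sulfur protein, held 398, 483 and 463 CPM in cardiomyocytes, against 25.7, 34.1 and 25.4 CPM in nonmyocytes. Its groups were also separate, at a log2 fold change of 3.98 ± 0.19 (edgeR adjusted p = 1.29e-09).

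The core proteins, which face the matrix, followed. Uqcrc1 (chr9:108838721-108851666) held 3421, 3493 and 2645 CPM in cardiomyocytes, against 326, 241 and 214 CPM in nonmyocytes. It was the highest of the 9 complex III genes per kb of exon in cardiomyocytes, at 2022 ± 298 CPM per kb against 165 ± 37.3 in nonmyocytes. Per kb of coding transcript Uqcr stood above it in cardiomyocytes, at 2550 against 2022 CPM. The log2 fold change of Uqcrc1 was 3.61 ± 0.22 (edgeR adjusted p = 1.12e-08). Uqcrc2 held 411, 731 and 731 CPM in cardiomyocytes, against 39.6, 51.8 and 59.8 CPM in nonmyocytes, so that the shallow cardiomyocyte library 1 stood below the other 2 without reaching the nonmyocytes. Its log2 fold change was 3.63 ± 0.25.

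The small subunits without redox centres, which surround this core, had log2 fold changes between 2.71 and 3.16. Uqcr, the gene with the shortest coding part in the complex, held 1135 ± 148 CPM in cardiomyocytes and 127 ± 18.6 CPM in nonmyocytes. Uqcrh, the acidic hinge protein near cytochrome c1, held 915 ± 227 CPM in cardiomyocytes and 129 ± 11.5 CPM in nonmyocytes. Uqcrq (chr11:53241424-53244333) held 678, 700 and 577 CPM in cardiomyocytes, against 114, 109 and 76.6 CPM in nonmyocytes, at a log2 fold change of 2.71 ± 0.19 (edgeR adjusted p = 5.65e-08). All 3 were separate between the fractions.

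Uqcrb, a subunit next to the ubiquinone site, was among the low genes with copies, at 18.8 ± 6.08 CPM in cardiomyocytes and 2.46 ± 1.18 CPM in nonmyocytes, with a log2 fold change of 2.96 ± 0.40. Uqcr10 (chr11:4601976-4604345) did not pass the filter. It had 6, 17 and 21 counts in the cardiomyocyte libraries, against 1, 0 and 0 counts in the nonmyocyte libraries. Scaled for library size, the summed ratio was 35.7 with an exact 95% interval of 6.09 to 1443, which covers counting error only. At 1.75 ± 0.241 CPM per kb of exon in cardiomyocytes, against 0.0426 ± 0.0738 in nonmyocytes, it was the lowest of the complex in both, with 97.5% of its transcript in another gene.

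Cycs (chr6:50512562-50516537), somatic cytochrome c, which shuttles electrons out of complex III, held 12.2, 14.0 and 19.1 CPM in cardiomyocytes. In nonmyocytes it held 1.42, 0.193 and 1.71 CPM. The groups did not overlap, and the log2 fold change was 3.73 ± 0.51 (edgeR adjusted p = 3.04e-05). Cycs passed the filter only through the cardiomyocyte libraries. At 4.44 ± 1.04 CPM per kb of exon in cardiomyocytes, against 0.325 ± 0.236 in nonmyocytes, it stood below Cyc1, which held 1453 ± 113 and 81.4 ± 5.05 CPM per kb there. Its transcript shares 28.5% of its 50-base stretches with other genes, mostly with Gm10053. Cyct, the testis form, had a mean of 0.626 CPM in cardiomyocytes and 0.0995 CPM in nonmyocytes and was not tested.

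Of the 15 ATP synthase genes 13 were tested, 12 were higher in cardiomyocytes and Atp5g2 was not called, at a median log2 fold change of 3.28. The 5 genes of F1, the matrix part that makes ATP, were all higher, at a median of 2.99. Atp5a1, the alpha subunit, held 5891, 7807 and 6777 CPM in cardiomyocytes, against 434, 408 and 439 CPM in nonmyocytes. Its groups were far apart, at a log2 fold change of 4.0 ± 0.19 (edgeR adjusted p = 1.29e-09), the largest of F1. Atp5b (chr10:127520329-127527447), the catalytic beta subunit, held 6386, 7391 and 6634 CPM in cardiomyocytes, against 886, 857 and 822 CPM in nonmyocytes. Its log2 fold change of 2.99 ± 0.17 (edgeR adjusted p = 7.70e-09) was below that of its alpha partner. Alpha and beta alternate in F1, and per kb of exon Atp5a1 held 2168 ± 305 and Atp5b 1606 ± 124 CPM in cardiomyocytes, whereas in nonmyocytes Atp5a1 held 136 ± 5.32 and Atp5b 202 ± 7.54 CPM. Atp5a1 was thus above Atp5b in cardiomyocytes and below it in nonmyocytes, while per kb of 1 coding transcript Atp5b was the higher in both, at 3551 against 2762 CPM in cardiomyocytes and 446 against 173 CPM in nonmyocytes.

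The central stalk turns inside F1. Atp5c1, the gamma subunit that forms its shaft, held 1486 ± 353 CPM in cardiomyocytes and 123 ± 6.16 CPM in nonmyocytes, a log2 fold change of 3.60 ± 0.21. Atp5e, the epsilon subunit, held 1492 ± 325 CPM in cardiomyocytes and 199 ± 33 CPM in nonmyocytes, a log2 fold change of 2.91 ± 0.21. Atp5d (chr10:79601377-79608558), the delta subunit, held 2505, 2553 and 1750 CPM in cardiomyocytes, against 540, 472 and 356 CPM in nonmyocytes. It had the smallest fold of any subunit called, at 2.32 ± 0.21 on the log2 scale (edgeR adjusted p = 7.19e-07), and the highest level of the ATP synthase genes per kb of exon in nonmyocytes, at 237 ± 48.4 CPM.

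The peripheral stalk holds F1 still against the turning ring. Atp5j, coupling factor 6, held 523 ± 50.4 CPM in cardiomyocytes and 46.6 ± 13.0 CPM in nonmyocytes. Atp5h, subunit d, held 578 ± 25.5 CPM in cardiomyocytes and 55.1 ± 9.15 CPM in nonmyocytes, and Atp5o, the OSCP that caps F1, held 676 ± 88.7 and 81.3 ± 3.98 CPM there. Log2 fold changes of these 3 genes were 3.49, 3.39 and 3.06, all called. Atp5f1, subunit b, did not pass the filter, with 3, 35 and 38 counts in cardiomyocytes, against 4, 0 and 0 counts in nonmyocytes. Cardiomyocyte library 1 and nonmyocyte library 1 gave almost equal counts for it at unequal depth, and the summed ratio was 15.4 with an exact 95% interval of 5.79 to 58.1 for counting error only.

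Small membrane subunits sit beside the ring, where they help to join enzymes into dimers. Atp5j2, subunit f, held 1547 ± 184 CPM in cardiomyocytes and 216 ± 53.6 CPM in nonmyocytes, a log2 fold change of 2.84 ± 0.21. Atp5k, subunit e, held 376 ± 66.1 CPM in cardiomyocytes and 38.8 ± 8.63 CPM in nonmyocytes, a log2 fold change of 3.28 ± 0.22. Atp5l, subunit g, is listed at 0 in all 6 libraries, with all of its transcript bases inside other annotated genes. Among the 8 ATP synthase genes under these same limits of 20%, the highest level per kb of exon was 13.0 times the lowest in cardiomyocytes and 15.9 times in nonmyocytes, with Atp5j lowest in both. Per kb of coding transcript it was 7.40 times in cardiomyocytes and 11.4 times in nonmyocytes, again with Atp5j lowest.

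Subunit c, the protein of the rotating ring, comes from 3 nuclear genes that differ in their import sequence and encode the same mature protein. In the reference transcripts the last 78 codons specify the same residues in all 3 genes, while the bases there are identical at 84.6% of positions between Atp5g1 and Atp5g2, 78.6% between Atp5g1 and Atp5g3 and 77.4% between Atp5g2 and Atp5g3. Of the 3 genes Atp5g1 and Atp5g3 were called higher, and Atp5g2 was not called. Atp5g1 (chr11:95930166-95936984) held 360, 530 and 325 CPM in cardiomyocytes, against 14.9, 15.9 and 18.5 CPM in nonmyocytes. Its lowest cardiomyocyte library was 17.5 times the highest nonmyocyte library, and its log2 fold change was 4.62 ± 0.23 (edgeR adjusted p = 1.85e-09), beside that of Sdha at the top of the 28 tested genes. The order of these 2 turned with the limma voom method and without cardiomyocyte library 2 or nonmyocyte library 2. Atp5g3 (chr2:73746504-73749383) held 3695, 5415 and 3078 CPM in cardiomyocytes, against 325, 317 and 318 CPM in nonmyocytes. Its groups were separate too, at a log2 fold change of 3.67 ± 0.23 (edgeR adjusted p = 1.50e-08).

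Atp5g2 (chr15:102493299-102501478) was the 1 tested gene that was not called. It held 1.94, 4.51 and 2.38 CPM in cardiomyocytes, against 1.57, 2.80 and 2.10 CPM in nonmyocytes. The groups overlapped, and the log2 fold change was 0.49 ± 0.51 (edgeR adjusted p = 0.424). Over 15 other settings this value ran from -0.23 to 0.73 and was never called. A difference was not detectable at this depth, and the level is uncertain because of the copy Gm10175.

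As a share of the 3 genes per kb of exon, Atp5g1 made up 4.26 ± 0.19% in cardiomyocytes and 2.19 ± 0.26% in nonmyocytes. Atp5g2 made up 0.228 ± 0.052% in cardiomyocytes and 2.17 ± 0.63% in nonmyocytes. The fractions did not overlap in either share, and the exact two-sided permutation test over libraries gave p = 0.1 for both, the smallest that 3 against 3 libraries can give. Atp5g3 made up 95.5 ± 0.21% in cardiomyocytes and 95.6 ± 0.74% in nonmyocytes, which overlapped (exact permutation p = 0.9). Copies make all 3 shares uncertain, since 66.0% of the 50-base stretches of Atp5g1 and 100% of those searched for Atp5g2 occur in other genes, against 0% for Atp5g3. The share of Atp5g2 rests on 10 to 87 counts per library, and its own level was not called different. All 3 shares also depend on the length used. Per kb of 1 coding transcript Atp5g1 made up 10.7 ± 0.44% in cardiomyocytes and 5.77 ± 0.65% in nonmyocytes, and Atp5g2 0.0698 ± 0.016% in cardiomyocytes and 0.696 ± 0.206% in nonmyocytes. On that scale Atp5g3 made up 89.2 ± 0.45% in cardiomyocytes and 93.5 ± 0.73% in nonmyocytes, and the fractions did not overlap for any of the 3. The annotated exons of Atp5g1 sum to 4908 bases and its coding transcript to 596 bases.

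**Figure D4:**
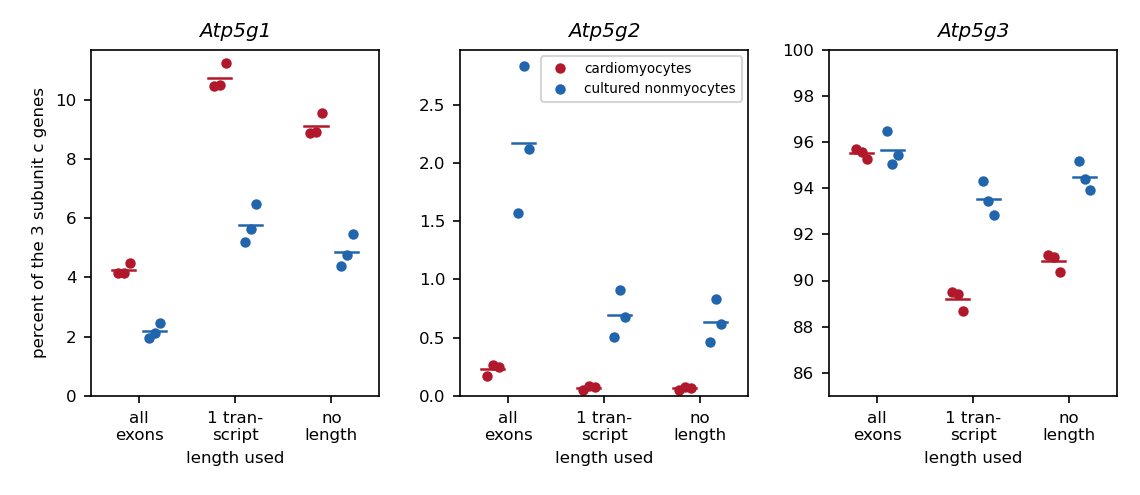
Share of each of 3 subunit c genes in their summed level (percent, with the axis of Atp5g3 starting at 85) in each library, by the length used for scaling, with cardiomyocytes in red left of cultured nonmyocytes in blue and lines for means. Atp5g1 takes a larger and Atp5g2 a smaller share in cardiomyocytes than in nonmyocytes under all 3 scalings, while the shares of Atp5g3 overlap only with all exons. Sequence that Atp5g1 and Atp5g2 share with copies elsewhere makes the shares uncertain.

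Promoters of the 3 genes are shown since the genes encode 1 mature protein. They are RefSeq sequences of the build GRCm38.p6, from 250 bases before to 50 after the start, all on the minus strand and printed along the gene. Capitals mark matches on either strand to letters bound by regulators of nuclear respiratory genes, AAGGTCA for estrogen-related receptors (ERR) and GCGCNTGCG for nuclear respiratory factor 1 (NRF1). The windows are chr11:96075582-96075881 for Atp5g1, chr15:102670998-102671297 for Atp5g2 and chr2:73911277-73911576 for Atp5g3.
Atp5g1: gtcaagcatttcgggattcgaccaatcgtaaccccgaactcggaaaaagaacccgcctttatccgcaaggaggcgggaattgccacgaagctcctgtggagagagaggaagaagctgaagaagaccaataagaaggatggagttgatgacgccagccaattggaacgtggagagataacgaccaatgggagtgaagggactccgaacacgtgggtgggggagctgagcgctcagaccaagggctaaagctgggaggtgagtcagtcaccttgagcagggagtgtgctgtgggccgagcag
Atp5g2: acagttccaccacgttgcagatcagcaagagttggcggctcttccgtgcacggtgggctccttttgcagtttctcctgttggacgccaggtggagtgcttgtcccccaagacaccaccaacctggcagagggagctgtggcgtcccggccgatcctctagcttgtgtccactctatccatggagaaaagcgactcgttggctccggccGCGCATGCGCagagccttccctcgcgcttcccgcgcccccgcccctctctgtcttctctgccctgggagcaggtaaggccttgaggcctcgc
Atp5g3: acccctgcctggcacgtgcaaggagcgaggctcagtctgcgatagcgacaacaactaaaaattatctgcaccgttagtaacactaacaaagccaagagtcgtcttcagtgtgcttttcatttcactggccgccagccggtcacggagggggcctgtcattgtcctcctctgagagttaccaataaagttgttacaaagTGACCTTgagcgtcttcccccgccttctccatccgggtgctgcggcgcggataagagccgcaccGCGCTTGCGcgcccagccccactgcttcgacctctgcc
The window of Atp5g1 held no match, that of Atp5g2 held 2 NRF1 matches that overlap each other, and that of Atp5g3 held 1 ERR and 1 NRF1 match. A match is a description of letters and not a bound site.

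For the genes of the other complexes, the windows of Sdhd (chr9:50603800-50604099, minus strand) and Cycs (chr6:50566520-50566819, minus strand) are printed the same way. Sdhd is shown because it held 3 of the 4 motifs searched, and Cycs because NRF1 was first found through the cytochrome c gene of the rat. The further motifs were CCGGAAG for the ETS family, which includes nuclear respiratory factor 2, and AAGATGGCG for YY1.
Sdhd: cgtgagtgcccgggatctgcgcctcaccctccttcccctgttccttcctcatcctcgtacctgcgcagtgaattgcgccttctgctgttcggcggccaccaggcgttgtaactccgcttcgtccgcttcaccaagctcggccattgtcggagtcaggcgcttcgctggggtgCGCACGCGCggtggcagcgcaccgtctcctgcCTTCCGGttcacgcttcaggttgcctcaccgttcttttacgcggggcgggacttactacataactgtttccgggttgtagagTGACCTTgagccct
Cycs: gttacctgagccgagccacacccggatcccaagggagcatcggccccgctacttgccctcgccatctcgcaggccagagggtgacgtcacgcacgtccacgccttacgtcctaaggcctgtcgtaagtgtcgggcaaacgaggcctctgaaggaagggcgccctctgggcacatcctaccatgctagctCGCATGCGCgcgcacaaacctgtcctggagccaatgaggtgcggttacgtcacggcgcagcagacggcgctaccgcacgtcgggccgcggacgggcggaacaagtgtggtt
In Sdhd the capitals are, along the sequence, an NRF1, an ETS and an ERR match, and in Cycs 1 NRF1 match. Of the 33 genes 25 had a window in the RefSeq table. With 1 window per gene, the first in that table's own order, the NRF1 letters were in 13 of 25 (52%), against 6.59% of 27025 mouse promoters of the same length. The ETS letters were in 8 of 25 (32%) against 9.12%, the ERR letters in 5 of 25 (20%) against 4.66% and the YY1 letters in 2 of 25 (8%) against 1.49%. Counting a gene where any of its windows held the letters, the members were 15 for NRF1, 9 for ETS, 5 for ERR and 3 for YY1, against 7.12%, 9.93%, 5.38% and 1.64% of all genes. The 5 genes with ERR letters were Sdhd, Atp5e, Atp5g3, Atp5k and Atp5l.

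The 4 other rows hold 2 genes that are no subunits and 2 copies. Atp5sl, now called Dmac2 and known as an assembly factor of complex I in human cells, held 118 ± 14.2 CPM in cardiomyocytes and 12.9 ± 1.46 CPM in nonmyocytes, a log2 fold change of 3.19 ± 0.19 (edgeR adjusted p = 9.76e-09). Atp5s is listed at 0 in all 6 libraries and overlaps another gene over 99.7% of its transcript. Atp5l-ps1 held 2.48 ± 0.158 CPM in cardiomyocytes and 0.432 ± 0.0781 CPM in nonmyocytes (log2 fold change 2.49 ± 0.61, edgeR adjusted p = 0.00283). It passed the filter only through the cardiomyocyte libraries. Atp5l2 had 0, 9 and 6 counts in cardiomyocytes and 0 in every nonmyocyte library. Scaled for library size, its summed cardiomyocyte counts were 4.06 times a floor of 3 counts over the nonmyocyte group. That value leaves out the counting error of the cardiomyocyte counts. Both copies share 50-base stretches with Atp5l, which is itself listed at 0, at 62.0% of stretches for Atp5l2 and 46.4% for Atp5l-ps1.

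Summed over its genes, complex II reached 3564 ± 422 CPM in cardiomyocytes and 320 ± 14.1 CPM in nonmyocytes. Complex III reached 8701 ± 942 CPM in cardiomyocytes and 794 ± 80.2 CPM in nonmyocytes, and the ATP synthase 27048 ± 3942 and 2836 ± 218 CPM there. To these cardiomyocyte sums Sdha, Uqcr10, Atp5f1 and Atp5l, whose levels are uncertain, added only 34.7, 1.02, 1.41 and 0 CPM. As ratios of the geometric means over 3 libraries, the folds were 11.1 for complex II, 11.0 for complex III and 9.49 for the ATP synthase. No fraction overlapped the other, and the exact two-sided permutation test gave p = 0.1 for each, the smallest possible with 3 against 3 libraries.

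The sums were also set against complex I, the entry point for electrons from NADH. Complex I was taken by symbol, as the 38 genes starting with Ndufa, Ndufb, Ndufc, Ndufs or Ndufv, without Ndufaf. Whether each of them encodes a subunit was not checked. The sum of complex II was 0.126 ± 0.0033 of that of complex I in cardiomyocytes and 0.0979 ± 0.0137 in nonmyocytes. For complex III the ratio was 0.308 ± 0.018 in cardiomyocytes and 0.241 ± 0.010 in nonmyocytes. The ATP synthase stood at 0.954 ± 0.00021 of complex I in cardiomyocytes and at 0.862 ± 0.031 in nonmyocytes. All 3 ratios were higher in cardiomyocytes without overlap between the fractions, at an exact two-sided permutation p of 0.1, the smallest possible. The same held for nuclear cytochrome c oxidase, complex IV, at 0.686 ± 0.032 of complex I in cardiomyocytes and 0.479 ± 0.0076 in nonmyocytes. Complex I itself had a summed fold of 8.57, below those of complexes II, III and IV and the ATP synthase. The ratios come from summed CPM, in which long and highly read genes weigh most, and they are not subunit proportions. Some genes are nearly missing from the sum of complex I too, such as Ndufs6 and Ndufs5 at 0.0852 and 0.327 CPM in cardiomyocytes.

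**Figure D5:**
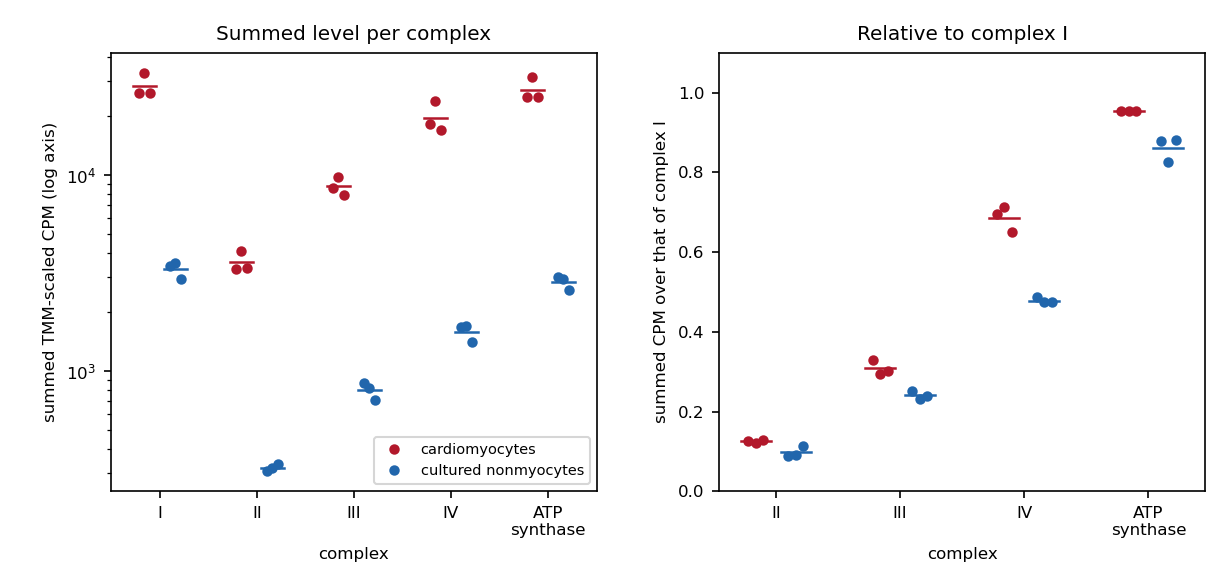
Summed TMM-scaled CPM per complex in each library (left, log axis) and the sums of complexes II, III, IV and ATP synthase over that of complex I (right), with cardiomyocytes in red left of cultured nonmyocytes in blue and lines for means. All sums and all ratios are higher in cardiomyocytes, with ATP synthase at 0.954 and 0.862 of complex I. Sdha, Uqcr10, Atp5f1 and Atp5l, at uncertain levels, add little or nothing to the sums.

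The rest of the respiratory chain was set beside these genes. Of the 38 genes taken as complex I by symbol 36 were tested, 35 were higher and 1 lower, at a median log2 fold change of 3.04. The largest was Ndufs1 at 4.0. The 1 lower gene, at -0.87, was Ndufa4l2, which is in the set by its symbol and was not checked to be a subunit. Of 15 nuclear cytochrome c oxidase genes 11 were higher, 2 lower and 2 not called, at a median of 3.02. The largest was Cox6a2 at 7.24, a muscle form, and the 2 lower genes were Cox6a1, its form in other tissues, at -0.97 and Cox6b2 at -3.30. Several subunits of cytochrome c oxidase have a muscle form and a general form.

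Partners with other symbols were measured too. Of 11 assembly factor genes for complexes II and III and the ATP synthase 9 were tested, 8 were higher and 1 was not called, at a median of 1.40. Atpaf1, which assembles F1, had the largest log2 fold change of them at 3.28 ± 0.54, at only 5.67 ± 2.10 CPM in cardiomyocytes and 0.584 ± 0.252 CPM in nonmyocytes and with 82.3% of its exon bases in other genes. Sdhaf1, an assembly factor of complex II, was the 1 not called, at -0.42 ± 0.60. Atpif1, the inhibitor that binds F1, held 153 ± 21.7 CPM in cardiomyocytes and 119 ± 11.9 CPM in nonmyocytes and was not called (log2 fold change 0.36 ± 0.17, edgeR adjusted p = 0.0722). The proteolipid 2010107E04Rik, a small ATP synthase subunit under another symbol, held 138 ± 26.6 CPM in cardiomyocytes and 12.6 ± 2.74 CPM in nonmyocytes, at 3.45 ± 0.22 on the log2 scale. The mitochondrially encoded subunit of complex III, mt-Cytb, had a log2 fold change of 5.0 ± 0.40 (edgeR adjusted p = 1.56e-07). The mitochondrially encoded ATP synthase subunits mt-Atp6 and mt-Atp8 are listed at 0 in all 6 libraries, as is Usmg5, a further small subunit, whose exon bases lie 100% in other genes. For mt-Atp6 only 6.46% of exon bases lie in other genes and for mt-Atp8 21.1%, while mt-Cytb held 14733 ± 6855 CPM in cardiomyocytes. The reason for these listed zeros was not tested, and they are not taken as absence of the transcripts.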

How the data were processed

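Gene counts of 6 polyadenylated RNA libraries, 3 per fraction, were deposited by the authors as whole numbers that were not normalised. Per the labels' protocols the libraries were single-end and did not keep the strand. The submitters' processing notes name TopHat 1.3.0, Bowtie and HTSeq, as well as DESeq and edgeR, without roles, and the build mm9 (NCBIM37). Neither counting rule nor read length is given in the sources used here. The deposited small RNA counts were not used.

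Counts of all 57683 genes entered edgeR 4.0.16 with limma 3.58.1 in R 4.3.3. The function filterByExpr (minimum count 10) took out genes with few counts, libraries were scaled with TMM, and fractions were compared with the robust quasi-likelihood test, two-sided. The biological coefficient of variation was 0.251. On simulated data made from these libraries, with 14734 genes, the test recovered 75 of 100 genes changed 4-fold and 35 of 100 changed 2-fold at 13 false calls. Sums, ratios and shares were compared by exact permutation over libraries.

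Levels per kb used all annotated exon bases of a gene or its shortest transcript with the longest coding part. Overlap with other genes came from the deposited mm9 annotation. Copies were sought as 50-base stretches in GENCODE vM21 transcripts, and promoters came from RefSeq (GRCm38.p6). Python 3.11.15 with matplotlib 3.10.9 drew the plots.

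The genes, lists, tests and named genes were chosen with earlier results of these data known. Full statistics are given for the genes highest and lowest per kb and in fold of each complex, the catalytic subunits, cytochrome c, the subunit c genes and those not called. Library numbers were not taken as pairs, since the labels do not tie them to hearts. Deviations of same-numbered libraries correlated at r = 0.162, 0.0504 and 0.100, and those of different-numbered libraries at r between -0.160 and 0.0694. These values do not settle whether the numbers mark pairs. Alternatives were other scalings, DESeq2 1.42.0, limma voom, no filter, a 2-fold threshold, a replicate block, each library left out and no mitochondrial genes. Leaving out genes with copies and the transcript length were chosen after seeing the data.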

Additional observations from a re-analysis of the deposited data

How the results depend on the processing

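The count of 27 genes called higher in cardiomyocytes stayed between 27 and 29 under the other scalings, tests, filters and thresholds and without any 1 library, with 0 lower each time. Leaving out genes that overlap others gave 23 of 24 tested, and leaving out those with copies as well gave 17 of 17, with 5 of 5 for complex III, since fewer genes remain. Median log2 fold changes were then 3.22 for complex II and 3.16 for complex III under both choices. Library totals lowered the medians to 2.57 over the tested genes, 2.94 for complex II, 2.71 for complex III and 2.60 for the ATP synthase. The summed log2 differences fell to 2.80 for complex II, 2.78 for complex III, 2.57 for the ATP synthase and 2.94 for nuclear cytochrome c oxidase, against 3.47, 3.45, 3.25 and 3.62 with TMM, and all genes called lower numbered 7106. With no filter the medians were 3.46 over the genes and 3.68 for complex III. Against a 2-fold change 3023 of all genes were called higher and 2996 lower. Among 420 values of single genes under other settings 419 kept direction and call. The exception was Atp5g2, at -0.23 with library totals. The cause was not tested.

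The difference in subunit c shares, cardiomyocytes minus nonmyocytes in percentage points, was 2.07 for Atp5g1, -1.95 for Atp5g2 and -0.12 for Atp5g3. Without length scaling it was 4.24 for Atp5g1, -0.57 for Atp5g2 and -3.67 for Atp5g3. With transcript length it was 4.95 for Atp5g1, -0.63 for Atp5g2 and -4.32 for Atp5g3. Leaving out 1 library gave a range of -0.42 to 0.29 for Atp5g3, with the upper value without nonmyocyte replicate 1.

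With the replicate number as a replicate block, 27 genes were called higher and 0 lower, all genes called lower numbered 4843, and the median was 3.25. A sign-flip over same-numbered libraries gave an exact p of 0.25 for the sums, the smallest that 3 pairs allow. The numbers are not known to pair the libraries. Few counts in Uqcr10, Atp5f1 and Atp5l2 leave their folds wide.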
